A study of Arabidopsis thaliana with 9 samples.

Results

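The vacuolar iron transporter family of Arabidopsis thaliana is made up here of 6 loci, VIT1 (AT2G01770) and the vacuolar iron transporter-like genes VTL1 (AT1G21140), VTL2 (AT1G76800), VTL3 (AT3G43630), VTL4 (AT3G43660) and VTL5 (AT3G25190). They were taken by locus identifier from a table of 32833 loci, and all 6 were in it. The table covers 9 RNA sequencing libraries in 3 groups of 3: Col-0 wild type seedlings, seedlings of the ntrc mutant, and adult ntrc plants sampled as young leaves of the rosette. Both kinds of seedling were 6 days old and grown in continuous light on MS, a mineral salt medium. For the adult group, 8-week-old plants raised in short days on soil gave leaves after 2 h of light, and leaves of 3 plants went into each library. All plants had a light intensity of 125 µE per square metre and second. The ntrc plants are mutant in NTRC, a plastid protein with its own thioredoxin domain fused to a thioredoxin reductase that draws on NADPH. The series asks how this enzyme takes part in iron homeostasis. The labels give neither the mutant allele nor the number of lines. No adult wild type library is analysed here, so the adult values have no genotype control.

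Iron in excess of immediate use is toxic to plant cells and is kept away in the vacuole or inside ferritin, a protein shell in the plastid. VIT1 carries ferrous iron across the vacuolar membrane and is known from developing seeds, where it places iron around the vascular strands of the embryo. The VTL proteins are shorter relatives, and several of them restore iron tolerance in yeast cells that lack the yeast vacuolar iron importer. The reference annotation records that transcripts of VTL1, VTL2, VTL3 and VTL5 are repressed under iron-deficient growth. RefSeq gives AT3G43630 and AT3G43660 no gene symbol, and they carry the family numbers VTL3 and VTL4 here.

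The members differed in gene structure and in how close their coding sequences are. In the RefSeq annotation of TAIR10.1, VTL1 lies on chromosome 1 at chr1:7404328-7405426 and VTL2 on the same chromosome at chr1:28829243-28830278, both on the plus strand and both with 1 exon. VTL5 lies on the plus strand of chromosome 3 at chr3:9174398-9175866 and has 2 exons. VTL3 (chr3:15538816-15539418) and VTL4 (chr3:15565224-15566047) have 1 exon each, lie on the same strand and are separated by 25805 bases that hold 1 other protein-coding gene. VIT1 lies on the minus strand of chromosome 2 at chr2:334663-336462 and has 4 exons. Its coding length is 753 bases, against 591 to 660 in the VTL genes. VTL3 and VTL4 were the closest pair, with 88.3% identical positions in a global alignment of their coding bases. VTL1 followed with 86.9% to VTL4 and 86.1% to VTL3, and VTL2 had 74.1% to 76.0% to these 3 genes. VTL5 reached 58.5% to 62.3% with the other VTL genes, and VIT1 44.4% to 46.2% with any of them. The longest run of identical bases shared by the spliced transcripts of any 2 members was 53 bases, between VTL1 and VTL3. How the deposited values divide reads that match more than 1 copy, and the read length, are not given in the sources used here, so the separate values of VTL1, VTL3 and VTL4 are uncertain.

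**Figure D1:**
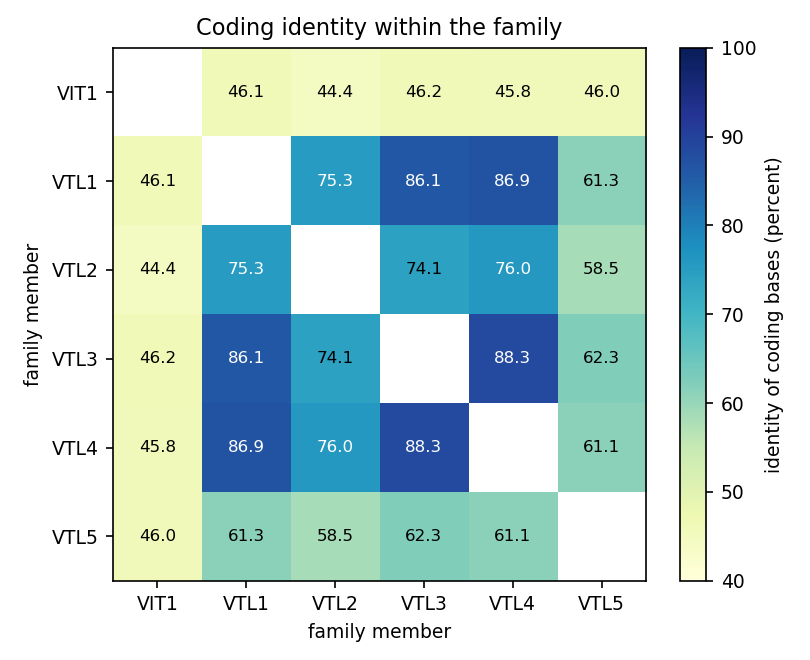
Share of identical positions, in percent, in global alignments of the coding bases of each pair of family members (both axes list the 6 genes, and colour gives the percentage from 40 to 100). VTL1, VTL3 and VTL4 are 86.1% to 88.3% identical to each other, VTL5 is 58.5% to 62.3% identical to the other VTL genes, and VIT1 stands apart at 44.4% to 46.2%.

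The bases upstream of the annotated transcript start are shown for VTL1, VTL2 and VTL5, the members with transcript in the seedlings, because their levels were compared between genotypes. Each line gives 300 bases read 5′ to 3′ on the plus strand of TAIR10.1, at chr1:7404028-7404327 for VTL1, chr1:28828943-28829242 for VTL2 and chr3:9174098-9174397 for VTL5. Capitals mark the longest run that VTL1 and VTL2 share and the longest runs that all 3 share.
VTL1: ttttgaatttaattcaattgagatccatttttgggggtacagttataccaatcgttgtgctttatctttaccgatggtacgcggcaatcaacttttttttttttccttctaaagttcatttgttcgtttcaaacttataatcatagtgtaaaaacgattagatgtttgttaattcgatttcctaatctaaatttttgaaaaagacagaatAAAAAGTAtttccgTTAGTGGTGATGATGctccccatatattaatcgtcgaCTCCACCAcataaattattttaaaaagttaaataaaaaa
VTL2: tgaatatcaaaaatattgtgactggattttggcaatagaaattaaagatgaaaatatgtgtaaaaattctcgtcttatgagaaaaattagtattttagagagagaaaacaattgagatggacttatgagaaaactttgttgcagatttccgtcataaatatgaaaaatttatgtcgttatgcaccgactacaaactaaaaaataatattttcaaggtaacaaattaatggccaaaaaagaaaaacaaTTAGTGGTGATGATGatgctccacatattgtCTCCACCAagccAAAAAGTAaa
VTL5: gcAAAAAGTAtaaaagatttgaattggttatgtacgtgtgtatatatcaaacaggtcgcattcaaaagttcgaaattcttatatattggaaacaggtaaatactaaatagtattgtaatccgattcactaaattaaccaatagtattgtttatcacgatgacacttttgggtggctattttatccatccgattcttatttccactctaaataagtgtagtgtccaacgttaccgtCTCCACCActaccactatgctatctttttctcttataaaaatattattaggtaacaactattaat
The run shared by VTL1 and VTL2, TTAGTGGTGATGATG, is 15 bases long and starts 76 bases before the transcript start of VTL1 and 53 bases before that of VTL2. Among the upstream windows of equal length of 27438 nuclear protein-coding genes, 2 held it on either strand, those of VTL1 and VTL2 themselves. All 3 windows held CTCCACCA, which starts 39, 22 and 65 bases before the transcript starts of VTL1, VTL2 and VTL5 and occurs on either strand in 0.889% of the windows. The other run common to all 3, AAAAAGTA, occurs in 7.11% of them. These runs were found by comparing the windows with each other, so their presence in them is how they were chosen. The G-box CACGTG, a palindrome known to be bound by many bHLH and bZIP transcription factors, was searched on both strands. It was in none of the 6 family windows, and 7.09% of all windows held it. The wider E-box CANNTG, a palindrome in its fixed letters that includes CACGTG, had 2 matches in VTL1, 1 in VTL2, 2 in VTL4 and 0 in VIT1, VTL3 and VTL5, against 61.9% of all windows with at least 1. VTL3 and VTL4 shared a run of 14 bases, GGCGTGTGTTCTCC, that was in 2 of the 27438 windows, their own. It starts 98 bases before the annotated start of VTL3, which has no annotated 5′ untranslated region, and 14 bases before that of VTL4.

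Across the whole table the libraries of a group were alike and the genotype labels matched the targeted gene. Rank correlations over all loci were 0.973 to 0.983 within groups, 0.972 to 0.981 between seedling libraries of different genotype and 0.847 to 0.863 between seedling and adult libraries. NTRC (AT2G41680) stood at 130 to 175 FPKM in wild type seedlings, 16.4 to 19.6 in ntrc seedlings and 15.1 to 16.2 in adult ntrc leaves. Genes typical of green tissue were high in all libraries. Of the 11 listed root markers, 10 or 11 reached 1 FPKM in each seedling library, and their levels ran from SMB at 0.674 to 1.84 FPKM to CASP1 at 21.6 to 51.0 FPKM. In adult leaves none of the 11 did, and 6 to 9 of them were listed at 0 in each library. As a unit, FPKM counts sequenced fragments relative to the length of the transcript and to the total of mapped fragments. The deposited log2 values had an upper quartile of 3.70 in every seedling library and 2.44 in every adult library. They are therefore not scaled by that total alone. The deposited values are read as log2(FPKM + 1), and the table gives no counts, so sequencing depth is unknown.

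VTL5 made up most of the family's transcript in seedlings, VTL1 and VTL2 were low, and VIT1, VTL3 and VTL4 were listed at 0 in all 6 seedling libraries. On the FPKM scale, which allows for transcript length, wild type libraries 1 to 3 held VTL5 at 48.8, 58.3 and 93.7, and ntrc libraries 1 to 3 held it at 73.8, 87.4 and 101. It exceeded 93.3% to 96.6% of all loci in wild type libraries and 95.7% to 96.9% in ntrc libraries. VTL5 therefore ranked among abundant transcripts, whereas VTL1 exceeded 50.7% to 66.7% of loci and VTL2 45.5% to 72.1%. The FPKM of VTL1 was 3.14, 2.28 and 4.41 in the wild type, and in ntrc it was 5.55, 5.16 and 7.69, in library order. For VTL2 the wild type libraries gave 1.43, 1.61 and 3.70 FPKM, while those of ntrc gave 3.09, 5.78 and 10.2. The wild type and ntrc values did not overlap for VTL1, while wild type library 3 lay above ntrc library 1 for VTL2 and above ntrc libraries 1 and 2 for VTL5. Being listed at 0 in all seedling libraries is common, since 7774 loci, or 23.7% of the table, were.

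**Figure D2:**
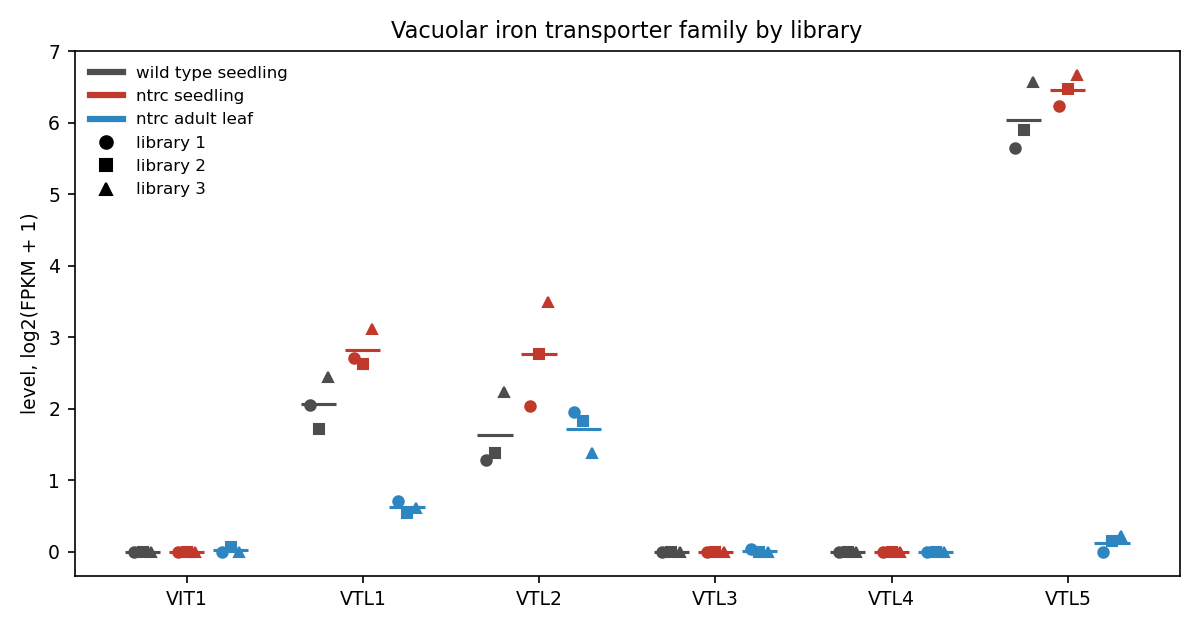
Level of each family member in log2(FPKM + 1) (vertical axis) for the 9 libraries, with colour for the group, marker shape for the library number and a bar at the mean of 3 libraries. VTL5 lies between 5.64 and 6.67 in seedlings and at 0.22 or below in adult leaves, VTL1 and VTL2 lie lower in seedlings, and VIT1, VTL3 and VTL4 lie at or near 0 throughout.

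The group means of the log2 values fell in the same order in both seedling genotypes, although single libraries differed in the place of VTL2. On the FPKM scale the ntrc means of VTL1 and VTL2 were 6.13 and 6.37, the reverse order. In wild type seedlings the order was VTL5 (mean ± SD of 6.03 ± 0.48 on the log2 scale, n = 3), VTL1 (2.07 ± 0.36) and VTL2 (1.63 ± 0.52). VTL1 was above VTL2 in each of the 3 wild type libraries, although the ranges of these neighbours overlapped. In ntrc seedlings VTL5 read 6.45 ± 0.22, VTL1 2.82 ± 0.26 and VTL2 2.76 ± 0.73, and VTL1 was above VTL2 in 1 of 3 libraries. The ranges of VTL1 and VTL2 overlapped in both genotypes, whereas those of VTL5 and VTL1 were separate in both. Differences between members were not tested. The ratio of VTL2 to VTL1 on the FPKM scale was 0.455, 0.703 and 0.837 in the wild type, against 0.557, 1.12 and 1.33 for ntrc libraries 1 to 3. These ratios overlapped between the genotypes.

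The make-up of the family total followed from these levels. VTL5 accounted for 91.5%, 93.7% and 92.0% of the summed FPKM of the family in wild type libraries 1 to 3. It accounted for 89.5%, 88.9% and 84.9% in ntrc libraries 1 to 3, so each ntrc library lay below each wild type library. The level of VTL5 itself was not lower, since it was higher in ntrc in each pair of equally numbered libraries. VTL2 held 2.67%, 2.58% and 3.63% of the wild type total, against 3.75%, 5.87% and 8.62% for ntrc, again without overlap. Shares are parts of the same sum, so these differences are not independent of each other, and they were not tested. For comparison, 5.39% of the 18818 genes tested between the genotypes had separate levels with ntrc higher, and 4.37% with ntrc lower. No such rate was drawn up for shares. For VTL1 the shares were 5.88%, 3.67% and 4.33% in the wild type, against 6.72%, 5.25% and 6.47% for ntrc, and these ranges overlapped. The family total was 72.5 ± 25.8 FPKM in wild type and 99.9 ± 18.2 in ntrc seedlings (mean ± SD, n = 3), with overlapping libraries.

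**Figure D3:**
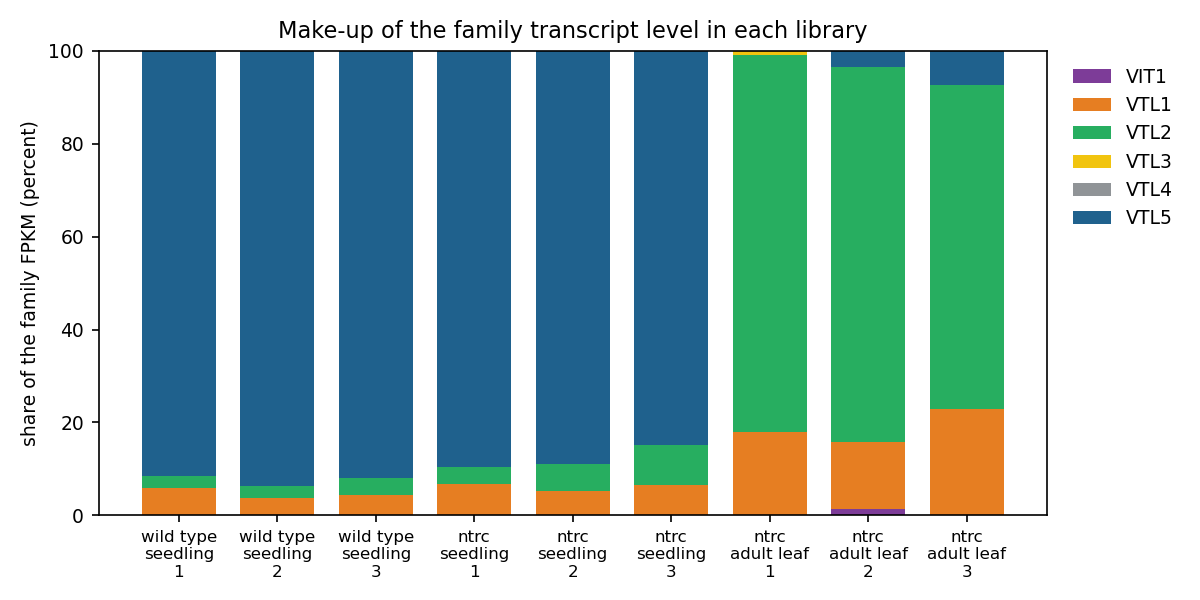
Share of the summed family FPKM, in percent (vertical axis), held by each of the 6 members in each of the 9 libraries (bars). VTL5 fills 84.9% to 93.7% of the bar in seedlings, and VTL2 fills 69.9% to 81.2% in adult ntrc leaves.

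The comparison of ntrc with wild type seedlings asked whether the loss of NTRC changed these genes. All 3 members that could be tested were higher in ntrc than in the wild type library of the same number, in 3 of 3 pairs. Such a pattern was seen in 18.7% of the 18818 genes tested. The differences within pairs 1 to 3 were 0.66, 0.91 and 0.68 on the log2 scale for VTL1, 0.75, 1.38 and 1.26 for VTL2, and 0.59, 0.58 and 0.11 for VTL5. VTL1 thus differed by a similar amount in each pair, VTL2 by least in pair 1, and VTL5 by little in pair 3. The libraries of the 2 genotypes were separate, with ntrc higher, for VTL1 and not for VTL2 or VTL5, and 5.39% of all genes tested were separate in this direction and 4.37% in the other. VIT1, VTL3 and VTL4 did not reach 1 FPKM in 3 seedling libraries, the minimum for a gene to be tested, and entered no test.

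Without regard to the library numbers, 0 of the 3 tested members passed the threshold of 0.05 on the p adjusted by Benjamini-Hochberg, where 0.00531% of all genes tested passed as higher and 0.0213% as lower. The test was limma, a linear model with variances pooled over genes, adjusted over all genes tested. The log2 fold change was 0.75 for VTL1, with a 95% interval of 0.26 to 1.24. For VTL2 it was 1.13, with an interval of 0.07 to 2.19, and for VTL5 0.42, with an interval of -0.16 to 1.00. Each of the 3 had a limma adjusted p of 0.947, while VTL1 and VTL2 had an unadjusted p of 0.00793 and 0.0396, below 0.05. Of all genes tested, 5.01% had an unadjusted p below 0.05, and 3.35% had one and were higher in ntrc. VTL5 had an unadjusted limma p of 0.127. Leaving out 1 library left every fold change positive. The VTL5 value ranged from 0.23 without wild type library 1 to 0.69 without wild type library 3. VTL2 ranged from 0.77 without ntrc library 3 to 1.49 without ntrc library 1, and VTL1 from 0.58 without wild type library 2 to 0.94 without wild type library 3.

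With the replicate number as a block, which compares libraries of equal number, VTL1 and VTL2 passed as higher in ntrc. The labels give no such pairing, and it was inferred from these same values. With the block 2 of 3 tested members passed as higher, where 0.159% of all genes tested did, and 0 passed as lower, where 0.229% did. VTL1 rose by 0.75 (SE 0.10, limma adjusted p = 0.0469), which is 1.68-fold on the FPKM + 1 scale. VTL2 rose by 1.13 (SE 0.14, limma adjusted p = 0.0370), which is 2.19-fold. VTL5 had 0.42 (SE 0.11) and did not pass, with a limma adjusted p of 0.198. Before adjustment all 3 had a blocked limma p below 0.05, as did 11.6% of all genes in either direction. The VTL1 call was lost under all 6 other blocked settings, with a limma adjusted p of 0.0501 with quantile normalization, 0.0563 with median ratio scaling, 0.0576 with a pseudocount of 0.1 and 0.0850 to 0.185 without 1 pair. The VTL2 call was lost without pair 2 (limma adjusted p = 0.123) or pair 3 (0.0850). Among all genes tested, 0.154% had a fold change at least as high as that of VTL2, 0.563% one as high as VTL1 and 2.95% one as high as VTL5.

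**Figure D4:**
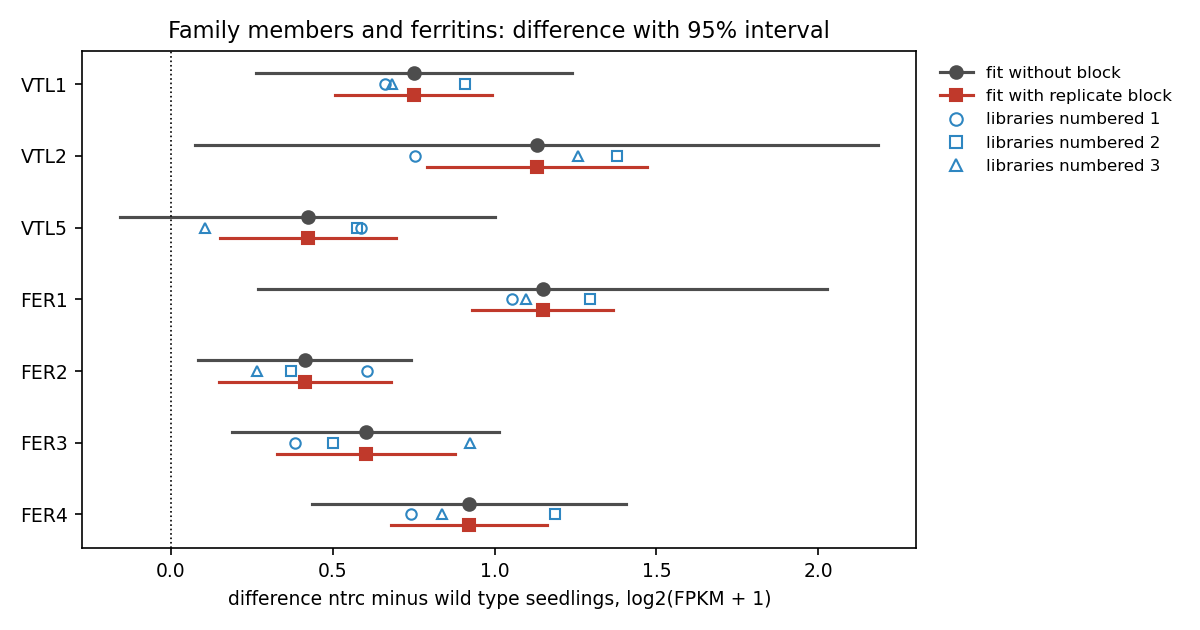
Difference between ntrc and wild type seedlings in log2(FPKM + 1) (horizontal axis) for the 3 tested family members and the 4 ferritins, with 95% intervals from limma without a block (grey) and with the replicate block (red), and the difference of each equally numbered pair of libraries (blue). The unblocked interval of VTL5 runs from -0.16 to 1.00 and crosses 0, and those of VTL1, VTL2 and the ferritins lie above 0. Intervals are not adjusted for the number of genes tested, and none of these genes passed without the block. The blocked interval of VTL5 runs from 0.15 to 0.70, although VTL5 did not pass with the block either.

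Whole seedlings hold both roots and shoots, and in bulk RNA fewer cells of a type cannot be told apart from less RNA per cell. The summed FPKM of the 11 root markers was 64.4, 81.3 and 111 in the wild type, against 92.9, 81.5 and 92.3 for ntrc libraries 1 to 3. Wild type library 3 was highest for the root markers and also the highest wild type library for VTL1, VTL2 and VTL5. Of the 11 root markers 8 were higher and 3 lower in ntrc, with a median log2 fold change of 0.07, and 0 passed with or without the block. The part of root tissue in the family's differences was not tested.

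Genes whose level followed the same pattern over the 6 seedling libraries were ranked by the root mean square difference of log2 values, each gene centred on its own mean. For VTL2 the nearest of 18817 other tested genes were ZIP2 (AT5G59520), a zinc and iron permease family member, with a distance of 0.13, AT5G20820 (SAUR76, a small auxin-upregulated RNA) with 0.15, and FRO4 (AT5G23980), a ferric reductase oxidase, with 0.17. FER1 (AT5G01600), a plastid ferritin, came 4th with 0.18. FER1 ranked 496th around VTL1 and 12484th around VTL5, and such ranks also depend on how much the genes vary. Among the other ferritins, FER3 ranked 35th, FER2 140th and FER4 168th around VTL1. In the same order these ranks were 163rd, 648th and 41st around VTL2, and 1888th, 394th and 2400th around VTL5. For VTL1 the nearest were AT2G03850, annotated as a late embryogenesis abundant family protein, with 0.07, AT2G41380, a methyltransferase family protein, with 0.09, and SIAR1 (AT1G44800), a transporter of the UMAMIT family, with 0.10. VTL5, which varied least, was nearest to AT5G26010, a protein phosphatase 2C family protein, with 0.04, LBD16 (AT2G42430), a transcription factor of lateral root formation, with 0.05, and CYP72A14 (AT3G14680), a cytochrome P450, with 0.05. The 3 members were not each other's nearest genes. Around VTL1, VTL5 ranked 281st and VTL2 3199th of the 18817 genes. Around VTL2, VTL1 ranked 116th and VTL5 213th, and around VTL5, VTL1 ranked 1680th and VTL2 14800th. The distances were 0.27 between VTL1 and VTL5, 0.41 between VTL1 and VTL2 and 0.46 between VTL2 and VTL5. Distances are smaller for genes that vary less, so they are compared only around 1 gene.

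**Figure D5:**
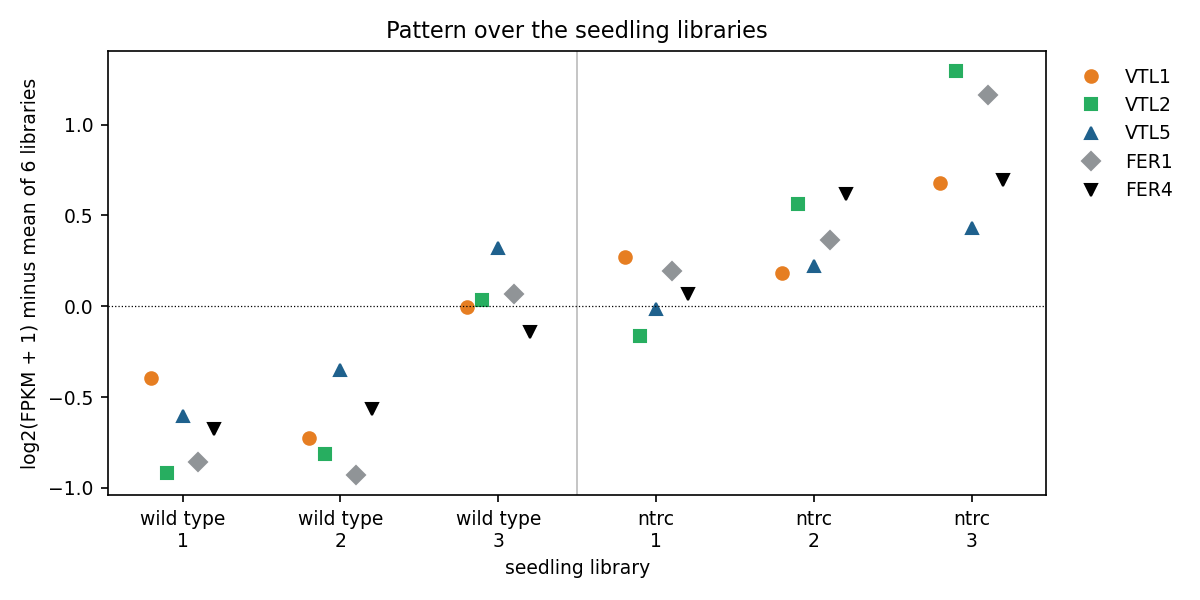
Log2(FPKM + 1) minus the gene's mean over the 6 seedling libraries (vertical axis) for VTL1, VTL2, VTL5 and the ferritins FER1 and FER4, by library (horizontal axis, wild type left and ntrc right of the line). VTL2 and FER1 have a root mean square distance of 0.18 over the 6 libraries and lie farthest apart in ntrc library 1, on opposite sides of 0, and wild type library 3 is the highest of the wild type libraries for all 5 genes.

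Ferritins, the other route of iron storage, were read beside the family. FER1 stood at 96.3, 91.7 and 184 FPKM in the wild type, against 201, 226 and 395 FPKM for ntrc libraries 1 to 3, without overlap. The other ferritins were separate in the same direction, as were 5.39% of all genes tested. The summed FPKM of the 4 ferritins was 2.33 to 2.80 times that of the vacuolar iron transporter family in wild type and 3.23 to 4.33 times in ntrc seedlings, ranges that do not overlap. The list of iron storage and vacuolar metal transport held 11 genes besides the family, of which all but MTP8 (AT3G58060), 10 in number, were tested, and 6 had a positive and 4 a negative fold change. Their median was 0.06, beside 0.0037 over all genes tested. Without the block 0 passed. With it 2 rose, FER1 and FER4 (AT2G40300), where 0.159% of all genes tested passed as higher. In the same fit 1 fell, ZIF1 (AT5G13740), where 0.229% passed as lower. ZIF1 moves the iron chelator nicotianamine into the vacuole. FER1 rose by 1.15 (limma adjusted p = 0.00987), FER4 by 0.92 (0.0268), and ZIF1 fell by 1.03 (0.0234; limma with the block, Benjamini-Hochberg). FER2 (AT3G11050) and FER3 (AT3G56090) had 0.41 and 0.60 and did not pass, with limma adjusted p of 0.197 and 0.0999 with the block. The exporters that release iron from the vacuole, NRAMP3 (AT2G23150) and NRAMP4 (AT5G67330), had log2 fold changes of -0.0088 and -0.53, and FPN2 (AT5G03570), which loads metals into it, had -0.60. None of these 3 passed in either fit. MEB1 (AT4G27860) and MEB2 (AT5G24290), more distant members of the same transporter superfamily found in the endoplasmic reticulum body, had 0.03 and 0.09. Of the 13 regulators of the iron response, 5 had a positive and 8 a negative log2 fold change. These ran from -2.50 to 0.44 with a median of -0.60, and 0 passed in either fit. In all 3 pairs, 7 regulators were lower in ntrc and 2 higher, beside 2857 and 3519 of the 18818 genes tested.

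In adult ntrc leaves VTL2 was the leading member, and VTL5 was at or near 0. VTL2 read 2.87, 2.54 and 1.60 FPKM in adult libraries 1 to 3 and exceeded 58.6% to 67.3% of loci there. VTL1 read 0.636, 0.456 and 0.521 FPKM and exceeded 45.7% to 48.5%. VTL5 was listed at 0 in library 1 and stood at 0.111 and 0.166 in libraries 2 and 3. The adult and seedling libraries were scaled apart, to different upper quartiles, so no fold change between stages is given.

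The order of the members within a library does not depend on that scaling. In each adult library VTL2 was above VTL1 and VTL1 above VTL5, and the ranges of these 3 were separate. VTL2 made up 81.2%, 80.6% and 69.9% of the family total in adult libraries 1 to 3, and VTL1 18.0%, 14.5% and 22.8%. The ratio of VTL2 to VTL1 was 4.51, 5.56 and 3.06, above its range of 0.455 to 1.33 in all 6 seedling libraries. VIT1 was listed at 0.0429 FPKM in adult library 2 and VTL3 at 0.0289 in adult library 1, both were listed at 0 in the other adult libraries, and VTL4 was listed at 0 in all 3. The ranges of VTL5, VIT1, VTL3 and VTL4 overlapped in adult leaves, and differences between them were not tested.

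Ferritin transcript exceeded family transcript by more in adult leaves than in seedlings. The summed ferritin FPKM was 38.0, 23.5 and 42.2 times the family total in adult libraries 1 to 3, against 2.33 to 4.33 times in the 6 seedling libraries. The family total was 3.53, 3.15 and 2.29 FPKM in the adult libraries. The ferritin total was 134, 74.0 and 96.4 FPKM there. Tissue, age, day length, growth medium and library kit all differ between these groups and cannot be told apart. The root markers moved with VTL5 between the stages, with a summed level of 0.137 to 0.517 FPKM in adult leaves and 64.4 to 111 in seedlings, and their part in the difference was not tested.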

How the data were processed

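The authors deposited 1 table of RNA sequencing values for 32833 loci in 9 libraries. The values are read as log2(FPKM + 1): the unit FPKM comes from the authors' name for the table, and the log2 scale and the pseudocount from the values. Per the submitters' processing notes, the genome build was TAIR10 and the tools StringTie, HISAT2 and FastQC, with no versions given. Per the labels' protocols, the seedling kit was a stranded mRNA preparation, and the adult kit a stranded preparation of total RNA depleted of ribosomal RNA. Each seedling library had an upper quartile of 3.70 in deposited log2 values, and each adult library one of 2.44. The labels describe replicates as biological. No 2 libraries were identical.

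The limma package (version 3.58.1, under R 4.3.3) compared the seedling genotypes, with trend and robust moderation, two-sided, over the 18818 genes that reached 1 FPKM in 3 or more of 6 libraries, and Benjamini-Hochberg adjusted. The procedure was tested on simulated data with independent noise in each library, which cannot check the pairing of libraries by number. Fold changes are differences of log2(FPKM + 1), which understates the change of low genes. Deviations from group means correlated between libraries of equal number at 0.506, 0.406 and 0.278, and between other numbers at -0.388 to 0.115. The libraries were therefore treated as paired, a pairing that rests on these values since the labels give none, and blocked fits stand beside the unblocked ones. Differences between stages were not tested.

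The members and gene lists were chosen with earlier results of these data known. The text names all members, the 3 genes nearest in pattern to each tested member, the ferritins and list genes that passed in either fit. FER1 as 4th nearest, the ranks of the other ferritins, the vacuolar transporters that did not pass and the shared upstream runs were added after values were seen. Loci were matched to RefSeq by identifier (32548 of 32833, all 6 members). Sequences came from TAIR10.1, whose nuclear chromosomes carry the TAIR10 sequence, and alignments from Biopython 1.88, with a match score of 2, a mismatch score of -1, and gap scores of -5 to open and -1 to extend.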

Additional observations from a re-analysis of the deposited data

How the results depend on the processing

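Each of the 3 tested members had a positive fold change under every alternative that tested it, with and without the replicate block. VTL2 was not tested under a minimum of 5 FPKM. No member passed in the 14 fits without a block, 13 for VTL2. With the block 2 members passed, and 1 did with median ratio scaling, quantile normalization or a pseudocount of 0.1, while 0 to 1 did without 1 pair. Over all genes, 1 rose and 4 fell without the block and 30 and 43 with it. The blocked counts were 26 and 42 with median ratio scaling, 27 and 45 with quantile normalization, 24 and 39 with a pseudocount of 0.1, and without pair 1, 2 and 3 they were 21, 6 and 28 higher and 51, 23 and 43 lower. A pseudocount of 0.1 without the block gave 0 and 2, and leaving out 1 library gave 0 to 2 and 1 to 22, with 22 without ntrc library 1. The cause of these shifts was not tested. The median log2 fold change of all genes was 0.0037, and 0.00019 with median ratio scaling and -0.0017 with quantile normalization. Depth is unknown, and VTL1 and VTL2 lay at or below 10.2 FPKM, where the pseudocount weighs on the fold change: VTL2 had 1.13 with 1 and 1.43 with 0.1.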
